A study of Mus musculus with 18 samples.

Results

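8 genes of cholesterol synthesis were followed through polysome gradients of mouse embryonic stem cells (ESCs): Hmgcs1, Idi1, Fdps, Fdft1, Sqle, Lss and Dhcr7, which encode enzymes of the pathway, and Insig1, which encodes a protein that holds the pathway back. They were taken by symbol, through the Ensembl identifier, and make up 8 of the 51467 genes in the table of read counts. 7 of them passed the filter on low counts and were tested among 12851 genes, whereas Idi1 did not. None of the 8 takes up cholesterol, so uptake genes were read from a wider list of the pathway.

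The cells were wild type (WT, the V6.5 line) or carried a knockout of Dgcr8 (KO), a gene needed to process primary microRNA transcripts. The KO cells were 1 previously established line, so a difference between genotypes is also a difference between 2 lines. Both were grown in 15% serum with LIF and 2 kinase inhibitors (PD0325901 and CHIR99021, together called 2i), and were given 100 ug/ml cycloheximide for 2 minutes to hold ribosomes on mRNAs. From each of 3 WT and 3 KO gradients (10 to 50% sucrose) the monosome, low polysome (2 to 4 ribosomes) and high polysome (4 or more ribosomes) fractions were sequenced from their 3′ ends, which gave 18 libraries with 1151649 to 4984833 counts each. Levels are in CPM, counts scaled to the size of the library and by TMM factors, and the translation level of a gene is its high polysome to monosome ratio. Nothing in the labels says whether the 3 gradients of a genotype came from separate cultures, so the p-values measure the spread between these gradients, which may be technical.

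Cholesterol is built from acetyl-CoA through the mevalonate pathway. Mevalonate is turned into isoprenoid units, joined into farnesyl diphosphate and squalene, closed into lanosterol and trimmed to cholesterol. The genes of the pathway are controlled together by SREBP2, a transcription factor that is held in the endoplasmic reticulum by INSIG proteins and SCAP when sterols are plentiful and is cut free when they are scarce. Insig1 is itself a target of SREBPs, which closes a feedback loop.

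The promoters of 2 members are shown, Hmgcs1 at the start of the pathway and Insig1 as its brake. They were picked with the results below known, because their translation levels changed in different directions. Within each fraction the KO against WT difference was negative for both. A link between the motifs and these differences was not tested. RefSeq windows of 300 bases around annotated starts (GRCm38.p6) were matched for 5 of the 8 members. Capitals mark 3 motifs searched on both strands: the letters TCACNCCAC, a form of the sterol response element that SREBPs bind, CCAAT, the box bound by NF-Y, and CACGTG, an E box. The matches did not overlap each other.
Hmgcs1, chr13:119690101-119690400, plus strand: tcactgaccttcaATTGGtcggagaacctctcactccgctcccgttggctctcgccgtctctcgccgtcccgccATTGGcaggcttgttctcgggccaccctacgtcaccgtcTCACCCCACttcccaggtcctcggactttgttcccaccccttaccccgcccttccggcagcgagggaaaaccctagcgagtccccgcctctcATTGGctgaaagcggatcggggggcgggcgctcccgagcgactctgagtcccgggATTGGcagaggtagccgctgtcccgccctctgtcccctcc
Insig1, chr5:28071162-28071461, plus strand: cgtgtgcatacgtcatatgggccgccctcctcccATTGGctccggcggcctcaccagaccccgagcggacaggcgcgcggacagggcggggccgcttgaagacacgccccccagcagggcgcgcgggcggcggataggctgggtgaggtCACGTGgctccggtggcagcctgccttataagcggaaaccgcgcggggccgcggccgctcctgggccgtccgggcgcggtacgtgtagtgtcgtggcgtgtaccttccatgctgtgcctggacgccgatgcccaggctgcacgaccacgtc
The Hmgcs1 window held the 9 letters of the sterol response element once, starting 137 bases before the start site, and 4 CCAAT boxes, all on the minus strand. Of all 32851 windows, 1.24% held the first motif and 37.4% a CCAAT box. The Insig1 window held 1 CCAAT box and 1 E box, the latter found in 7.15% of all windows. TCACNCCAC was not in the windows of Insig1, Idi1, Lss or Dhcr7 as written here, which says only that these letters are not there. Fdps, Fdft1 and Sqle had no matching window.

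Since the KO cells cannot process canonical microRNAs, sites of the ESC-enriched microRNAs that share 1 seed were also looked up. The mature sequences (RefSeq, GRCm38.p6) are given with the seed, bases 2 to 8, in capitals.
miR-291a-3p: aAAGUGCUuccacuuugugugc
miR-294-3p: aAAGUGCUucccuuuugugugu
miR-295-3p: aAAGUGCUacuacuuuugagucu
miR-302b-3p: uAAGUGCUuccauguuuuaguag
miR-302d-3p: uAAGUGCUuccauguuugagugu
Among the 3′ UTRs of the 8 members, 3 held the 6 bases GCACTT that pair with bases 2 to 7 of these microRNAs, at 4 places, and none held a site of 7 or 8 bases. For comparison, 31.3% of the 11671 3′ UTRs of tested protein-coding genes held the 6 bases and 19.4% held a longer site. The 4 places are printed with the 6 bases in capitals, on GRCm38 and in the annotation of GENCODE M21.
Fdft1, chr14:63146506-63146533, minus strand: tgccgactgctGCACTTgtgaggccacg
Lss, chr10:76553439-76553466, plus strand: ttgtggagtggGCACTTgagcatcttgt
Lss, chr10:76554608-76554635, plus strand: ttggccatggtGCACTTtgtgccctctg
Insig1, chr5:28078368-28078395, plus strand: atcttggtgatGCACTTgattgtataca
These matches are descriptions and no binding was measured.

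Hmgcs1 (ENSMUSG00000093930, chromosome 13, 119690379 to 119708260, plus strand) encodes cytosolic HMG-CoA synthase, an early step on the way to mevalonate. WT monosome libraries held 118, 143 and 118 CPM, low polysome libraries 110, 115 and 109 CPM, and high polysome libraries 199, 236 and 261 CPM. In KO cells the levels were 84.5, 74.6 and 71.7 CPM in monosomes, 133, 73.7 and 101 CPM in low polysomes, and 233, 194 and 216 CPM in high polysomes. The KO libraries thus lay below every WT library in monosomes. In low polysomes 1 lay above and 2 below all WT libraries, and in high polysomes the genotypes overlapped. In monosomes KO was lower by a log2 difference of -0.73 ± 0.17 (standard error, SE; limma adjusted p = 0.000509), under the fold threshold. In high polysomes the difference was -0.11 ± 0.14 (adjusted p = 0.492).

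Idi1 (ENSMUSG00000058258, chromosome 13, 8885501 to 8892451, plus strand) encodes the isomerase that balances the pathway's 2 isoprenoid units. It had 20 reads in all 18 libraries together. No library held more than 4, and 7 libraries held 0. At such counts no fold is given, and a difference between groups was not detectable at this depth. The last 1816 bases of its main transcript shared no run of 50 bases with the transcripts of another gene in GENCODE M21, and the cause of its low counts was not tested.

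Fdps (ENSMUSG00000059743, chromosome 3, 89093588 to 89101959, minus strand) encodes farnesyl diphosphate synthase, which feeds both sterols and protein prenylation. WT levels were 14.7, 19.4 and 31.8 CPM in monosomes, 31.4, 25.7 and 33.7 CPM in low polysomes, and 75.3, 59.5 and 61.1 CPM in high polysomes. KO levels were 12.2, 8.54 and 10.2 CPM in monosomes, 18.4, 23.7 and 20.5 CPM in low polysomes, and 38.0, 37.9 and 42.7 CPM in high polysomes. In each fraction all 3 KO libraries lay below all 3 WT libraries. In monosomes Fdps fell by 1.004 ± 0.291 on the log2 scale (limma adjusted p = 0.00575), on 22 to 36 reads per library, a call that was lost without WT replicate 2 (log2 -0.99), WT replicate 3 (-0.76) or KO replicate 2 (-0.80). The counts of Fdps are uncertain, because 1152 of its transcript's 1333 runs of 50 bases also occur in 8 other genes. Among them is a readthrough transcript on the same strand (Gm43738). At the 3′ end of Fdps the stretch free of shared runs is the last 55 bases.

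Fdft1 (ENSMUSG00000021273, chromosome 14, 63145150 to 63179578, minus strand) encodes squalene synthase, the first step committed to sterols. Its WT levels were 72.3, 62.0 and 54.8 CPM in monosomes, 56.1, 48.0 and 46.4 CPM in low polysomes, and 79.2, 92.6 and 98.7 CPM in high polysomes. Its KO levels were 50.0, 38.8 and 50.1 CPM in monosomes, 70.1, 48.7 and 62.0 CPM in low polysomes, and 114, 95.7 and 81.4 CPM in high polysomes. KO lay below WT in monosomes without overlap (log2 -0.47 ± 0.18, limma adjusted p = 0.0421), and the genotypes overlapped in both polysome fractions.

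Sqle (ENSMUSG00000022351, chromosome 15, 59315077 to 59331192, plus strand) encodes squalene epoxidase, which adds oxygen to squalene before the ring closure. WT libraries held 83.7, 95.5 and 93.7 CPM in monosomes, 129, 124 and 126 CPM in low polysomes, and 193, 175 and 165 CPM in high polysomes. KO libraries held 118, 104 and 105 CPM in monosomes, 160, 157 and 178 CPM in low polysomes, and 204, 241 and 218 CPM in high polysomes. Sqle was the 1 member whose KO libraries lay above all WT libraries, and it did so in all 3 fractions. The differences were small, at log2 0.25 ± 0.14 in monosomes (limma adjusted p = 0.147), 0.38 ± 0.12 in low polysomes (adjusted p = 0.00484) and 0.32 ± 0.11 in high polysomes (adjusted p = 0.0139).

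Lss (ENSMUSG00000033105, chromosome 10, 76531588 to 76557138, plus strand) encodes lanosterol synthase, which closes the sterol rings. It was lowly counted, with 19 to 53 reads per library. WT levels were 22.1, 25.8 and 20.3 CPM in monosomes, 12.7, 14.8 and 14.1 CPM in low polysomes, and 16.8, 15.1 and 11.1 CPM in high polysomes. KO levels were 12.2, 9.32 and 7.44 CPM in monosomes, 7.38, 7.05 and 6.04 CPM in low polysomes, and 9.59, 9.63 and 9.65 CPM in high polysomes. All KO libraries lay below the WT libraries of their fraction. Lss fell by 1.30 ± 0.27 on the log2 scale in monosomes (limma adjusted p = 0.00015) and by 1.03 ± 0.25 in low polysomes (adjusted p = 0.000589), the latter at -0.93 without KO replicate 3, under the fold threshold.

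Dhcr7 (ENSMUSG00000058454, chromosome 7, 143823145 to 143848410, plus strand) encodes 7-dehydrocholesterol reductase, the last step to cholesterol. WT levels were 33.5, 18.1 and 25.6 CPM in monosomes, 40.9, 30.1 and 36.7 CPM in low polysomes, and 60.1, 52.6 and 69.1 CPM in high polysomes. KO levels were 12.8, 13.6 and 17.2 CPM in monosomes, 19.7, 16 and 18.4 CPM in low polysomes, and 46.6, 37.6 and 50.8 CPM in high polysomes. Again no KO library reached a WT library of the same fraction. The log2 difference in low polysomes was -0.97 ± 0.19 (limma adjusted p = 4.01e-05), just short of the fold threshold. It passed that threshold without WT replicate 2 (-1.12) or KO replicate 1 (-1.03), with DESeq2 (-1.02) and with a filter of 10 CPM (-1.02).

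Insig1 (ENSMUSG00000045294, chromosome 5, 28071363 to 28078662, plus strand) encodes the INSIG protein that retains SCAP and SREBP. In WT cells it held 46.2, 47.1 and 35.4 CPM in monosomes, 76.2, 72.5 and 87.6 CPM in low polysomes, and 54.2, 52.3 and 62.1 CPM in high polysomes. In KO cells it held 37.2, 41.2 and 33.7 CPM in monosomes, 26.4, 42.0 and 42.8 CPM in low polysomes, and 22.5, 16.5 and 17.2 CPM in high polysomes. The genotypes overlapped in monosomes and stood apart in both polysome fractions, with the KO libraries lower. Insig1 fell by 1.11 ± 0.16 on the log2 scale in low polysomes (limma adjusted p = 1.07e-07) and by 1.60 ± 0.18 in high polysomes (adjusted p = 7.99e-10), a 3.04-fold difference. The low polysome call did not hold without KO replicate 1 (log2 -0.88), while the high polysome difference ranged from -1.498 to -1.725 without any 1 gradient.

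**Figure D1:**
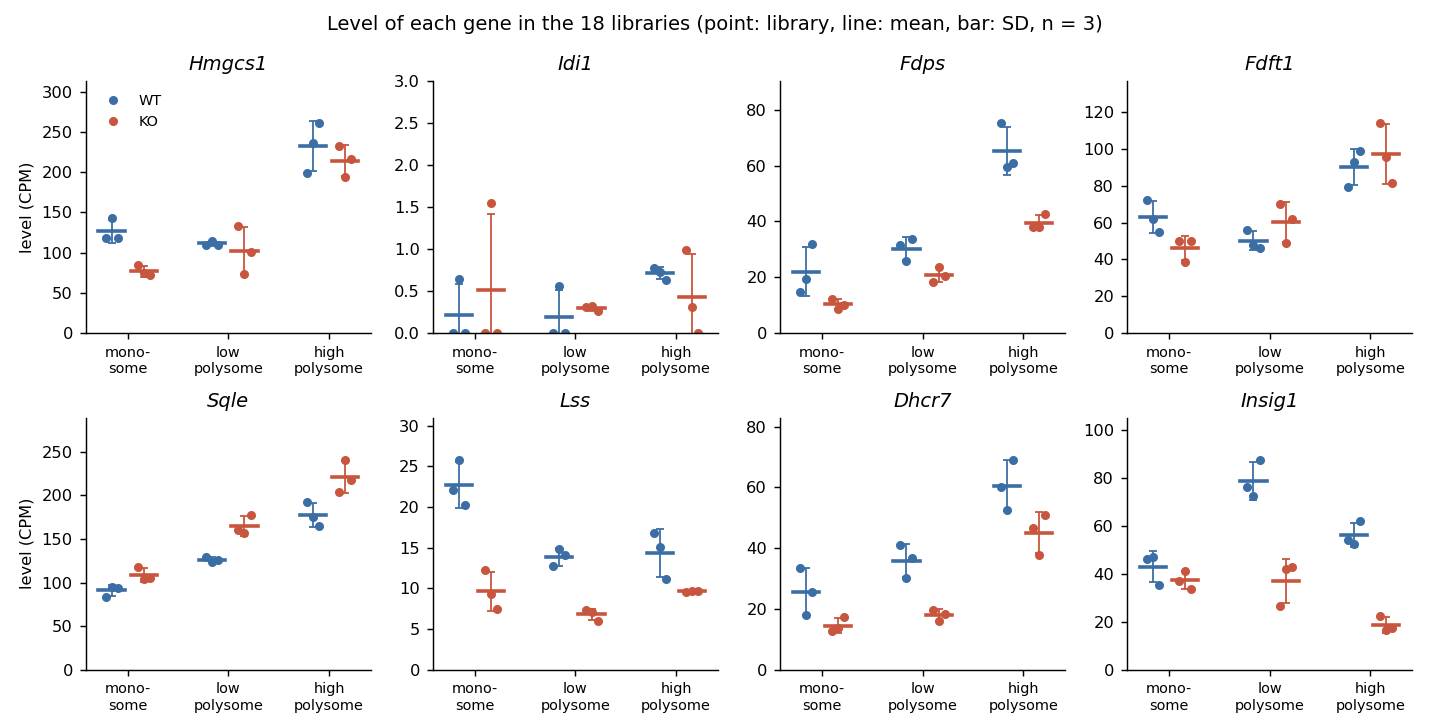
Level in CPM (y axis, from 0, scaled for each gene) of the 8 genes in the 3 fractions of WT and KO ESCs (x axis). Points are libraries, horizontal lines means and bars SD (n = 3). Insig1 stood at 56.2 ± 5.21 CPM in WT and 18.7 ± 3.27 CPM in KO high polysomes, and Idi1 stayed under 2 CPM throughout.

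Within a genotype, 5 of the 7 tested members shared the fraction with the highest level. In WT cells, Hmgcs1, Fdps, Fdft1, Sqle and Dhcr7 had their highest mean in high polysomes, Lss in monosomes (22.7 ± 2.80 against 14.4 ± 2.89 CPM in high polysomes) and Insig1 in low polysomes (78.8 ± 7.87 CPM). The libraries of low polysomes and monosomes, neighbours in level, overlapped for Dhcr7 (35.9 ± 5.43 against 25.7 ± 7.71 CPM), Fdps (30.3 ± 4.14 against 22 ± 8.84 CPM) and Fdft1 (50.1 ± 5.20 against 63 ± 8.81 CPM) in WT cells, and those of low and high polysomes for Lss. In KO cells the same 5 enzymes again had their highest mean in high polysomes, with overlap of monosomes and low polysomes for Hmgcs1, Fdft1, Dhcr7 and Insig1. The monosome and high polysome levels of Lss differed there by less than their spread (9.66 ± 2.41 and 9.62 ± 0.0326 CPM), and Insig1 had its lowest mean in high polysomes.

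Translation levels put numbers on this. A gene was called at a limma adjusted p under 0.05 and an absolute log2 value over 1. In WT cells 2 of the 7 members were called higher in high polysomes than in monosomes, Fdps (log2 1.66 ± 0.22) and Dhcr7 (1.27 ± 0.22), against 10.7% of all genes tested, and 0 were called lower (0 with edgeR and with DESeq2 too, 1 at an unadjusted p under 0.05), against 19.3%. Hmgcs1 (0.87 ± 0.15) and Sqle (0.96 ± 0.13) were near the threshold, and without WT replicate 2 both passed it (1.01 and 1.07), making 4. Sqle also passed it without WT replicate 3 or KO replicate 2 (1.02 each). In KO cells 5 members were called higher, against 17.5% of all genes, and 1 lower, against 25.5%. The 5 were Fdps (1.96 ± 0.24), Dhcr7 (1.61 ± 0.22), Hmgcs1 (log2 1.49 ± 0.15), Fdft1 (1.06 ± 0.16) and Sqle (1.03 ± 0.12). The 1 was Insig1 (-1.02 ± 0.20). Fdft1, Sqle and Insig1 lay close to the fold threshold, and without KO replicate 2 the 6 calls became 3 (0.96, 0.96 and -0.83). Fdft1 was also lost without KO replicate 1 (0.99) and Insig1 without WT replicate 2 (-0.99). DESeq2 called the same number higher and 0 lower.

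The study asks how the loss of microRNAs alters translation, which the difference in translation level between KO and WT addresses. 0 of the 7 members were called higher in this comparison (0 with edgeR and DESeq2, 3 at an unadjusted p under 0.05), where 6.29% of all genes were, and 1 was called lower, where 8.81% were. At adjusted p alone, 1 was higher against 13% of all genes and 1 lower against 15.2%. The member called lower was Insig1. Its log2 high polysome to monosome ratio was 0.23, 0.15 and 0.80 in the WT gradients and -0.71, -1.28 and -0.94 in the KO gradients, so the genotypes did not overlap. Its translation level fell by 1.39 ± 0.27 on the log2 scale (limma adjusted p = 0.00013). The call held in each of the alternative settings run that give a test, with a largest adjusted p of 0.00285.

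The enzymes had ratios that differed less or the other way. The log2 ratios of Hmgcs1 were 0.75, 0.72 and 1.137 in WT and 1.46, 1.38 and 1.58 in KO gradients, without overlap, and its difference of 0.62 ± 0.21 passed the adjusted p (0.0266) but not the fold. Lss had ratios of -0.38, -0.74 and -0.83 in WT and -0.33, 0.04 and 0.35 in KO gradients, with a difference of 0.77 ± 0.35 (limma adjusted p = 0.101). These 2 were the members whose KO gradients lay above all WT gradients, against 20.3% of all genes, and Insig1 was the 1 below, against 21.4%. The differences of Fdft1 (0.55 ± 0.23), Dhcr7 (0.34 ± 0.31), Fdps (0.30 ± 0.33) and Sqle (0.07 ± 0.18) did not pass the test. With scaling by total counts, Fdps (-0.03) and Sqle (-0.26) turned negative. The median over the 7 members was 0.34, beside 0.01 over all genes tested.

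**Figure D2:**
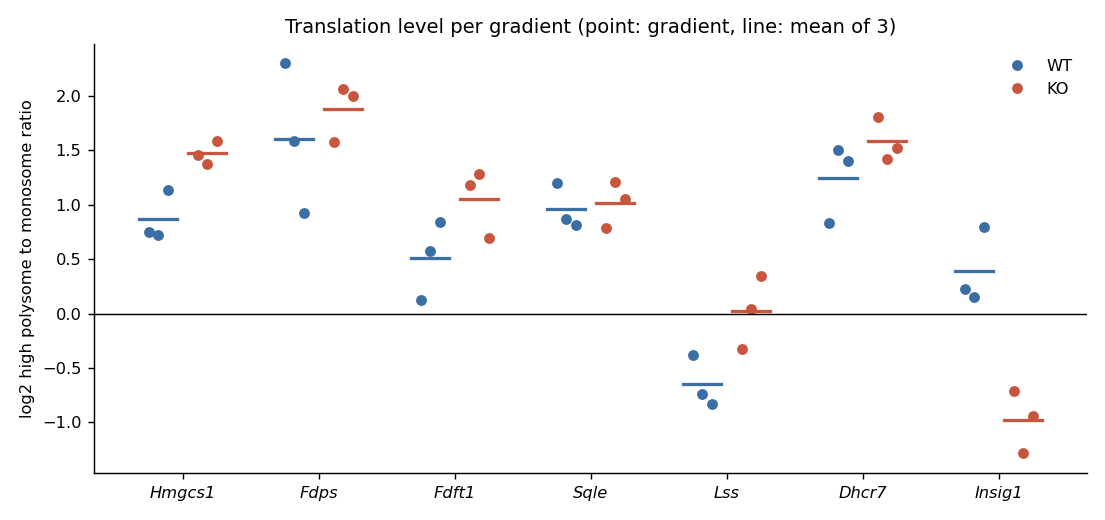
Translation level of the 7 tested genes as the log2 ratio of high polysomes to monosomes (y axis) in each gradient, by genotype. Points are gradients and lines the mean of 3. The KO gradients of Insig1 lay at -1.28 to -0.71, all under the WT gradients, and those of Hmgcs1 at 1.38 to 1.58, all above them.

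Splitting the ratio at the low polysomes gave no member called. For the low polysome to monosome ratio, 0 were called higher and 0 lower (also with edgeR and DESeq2; 2 and 1 at an unadjusted p under 0.05), against 1.23% and 3.81% of all genes. For the high to low polysome ratio there were again 0 in either direction with all 3 tools (1 and 1 at an unadjusted p under 0.05), against 2.29% and 2.89%. Insig1 was lower in KO in both steps, by -0.89 ± 0.25 from monosomes to low polysomes (limma adjusted p = 0.015) and by -0.50 ± 0.24 from low to high polysomes (adjusted p = 0.156). The first step passed the fold threshold without WT replicate 2 or without KO replicate 3 (both log2 -1.10).

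KO against WT within a fraction combines the amount of an mRNA with its distribution over the gradient, and these, like fewer cells expressing it or less RNA per cell, cannot be told apart here. In monosomes 2 members were called lower, Lss and Fdps, against 9.63% of all genes, and 0 higher (0 with edgeR and DESeq2, 0 at an unadjusted p under 0.05), against 8.43%. In low polysomes 2 were called lower, Insig1 and Lss (3 with DESeq2, which added Dhcr7), against 13.6%, and 0 higher (0 with edgeR and DESeq2, 1 at an unadjusted p under 0.05), against 11.4%. In high polysomes 1 was called lower, Insig1, against 17.9%, and 0 higher (0 with edgeR and DESeq2, 1 at an unadjusted p under 0.05), against 15.1%. Leaving out WT replicate 2, WT replicate 3 or KO replicate 2 reduced the monosome count to 1, and leaving out KO replicate 3 the low polysome count to 1, while leaving out WT replicate 2 raised the latter to 3.

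At adjusted p alone, 5 members were lower in monosomes, against 19.9% of all genes, and 0 were higher, against 17.5%. In low polysomes 4 were lower, against 26.2%, and 1 higher, against 26.1%. In high polysomes 4 were lower, against 31.6%, and 1 higher, against 29.1%. The 4 were Fdps, Lss, Dhcr7 and Insig1 in both polysome fractions, and the 1 was Sqle. Counted by libraries that did not overlap, KO was below WT for 5 members in monosomes and for 4 in either polysome fraction, where (in that order) 25.7%, 28.4% and 33.7% of all genes were, and above WT for 1 in each, Sqle, where 23.5%, 28.6% and 29.9% were. The medians of the members' log2 differences were -0.73, -0.53 and -0.43 in the 3 fractions, beside -0.05, 0.00 and -0.08 over all genes tested.

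**Figure D3:**
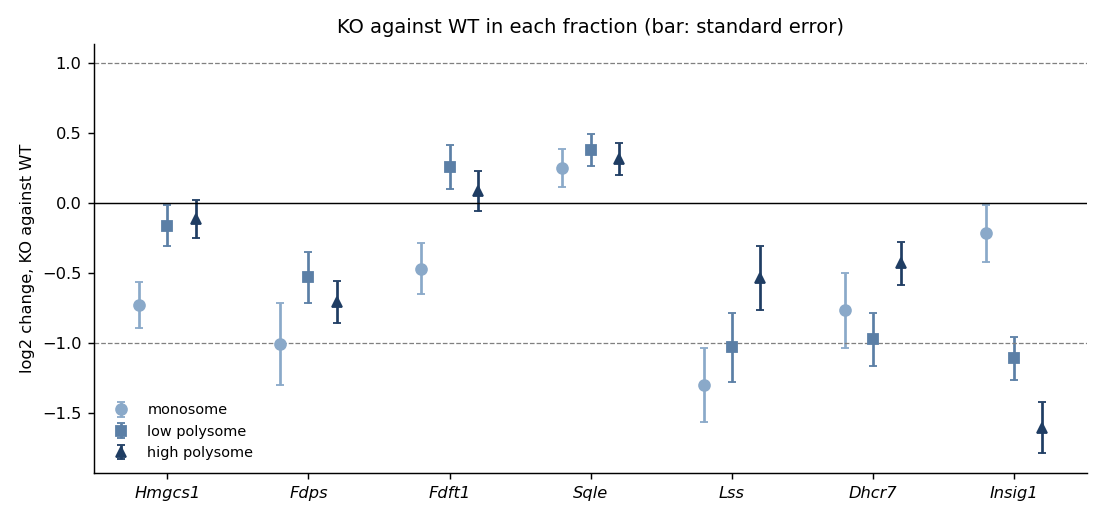
Difference of KO from WT on the log2 scale (y axis) for the 7 tested genes in monosomes, low polysomes and high polysomes, with SE bars. Dashed lines mark the fold threshold of 1. Insig1 went from -0.22 in monosomes to -1.60 in high polysomes, while Lss went from -1.30 to -0.53.

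Members differed in how their levels ran over the libraries. Over the 18 libraries, the log2 CPM of Dhcr7, Fdps and Hmgcs1 had a Pearson r of 0.91, 0.90 and 0.87 with the mean of the other tested members, Fdft1 0.67, Sqle 0.36, Lss 0.14 and Insig1 -0.11. These are descriptions over libraries that share gradients and fractions. The genes outside the 8 with the highest r to the mean profile of the 7 tested members, each centred and scaled, among 7143 genes with a mean of at least 20 CPM, were Prmt7 (0.98), an arginine methyltransferase, Taldo1 (0.98), an enzyme of the pentose phosphate pathway, Cct7 (0.97), a chaperonin subunit, Acat2 (0.97), which makes the acetoacetyl-CoA that HMG-CoA synthase uses, and Hat1 (0.97), a histone acetyltransferase. The median r of those genes was 0.06. The mean CPM of all 5 was higher in high polysomes than in monosomes in both genotypes and lower in KO than in WT in every fraction, as with Acat2 at 76.8, 94.7 and 236 CPM in WT and 41.3, 70.6 and 125 CPM in KO cells.

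The rest of the pathway was read from 3 lists: 14 further genes of sterol synthesis, 10 of SREBP control, and 10 of uptake and release of cholesterol, of which 33 of 34 were tested. In translation level 3 of the 33 were called higher, against 6.29% of all genes tested, and 3 lower, against 8.81%. With the fold threshold both counts thus lay near those shares. At adjusted p alone 8 were higher, against 13%, and 4 lower, against 15.2%. The median of the 33 was 0.19 (-0.14 with scaling by total counts), and that of all genes 0.01 (-0.32). Among the synthesis genes 0 of 14 were called higher (0 with edgeR and DESeq2, 5 at an unadjusted p under 0.05) and 2 lower, Erg28, a scaffold for sterol enzymes (-1.21 ± 0.17), and Pmvk, phosphomevalonate kinase (-1.05 ± 0.20). Pmvk fell under the fold threshold without WT replicate 1, WT replicate 3 or KO replicate 3 (-0.98, -0.96 and -0.99).

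The 3 genes called higher were Srebf2 and Srebf1, among 10 tested genes of SREBP control with a median of 0.11, and Npc1, among 9 tested genes of uptake and release, of which Stard4 was called lower. Srebf2, which encodes SREBP2, rose by 1.32 ± 0.18 in translation level (limma adjusted p = 4.23e-07), with high polysome means of 509 ± 44.3 CPM (WT) and 884 ± 124 CPM (KO) and monosome means of 212 ± 8.59 CPM (WT) and 148 ± 12.7 CPM (KO). Srebf1, its relative for fatty acid genes, rose by 1.29 ± 0.23. Npc1, which exports cholesterol from lysosomes, rose by 1.15 ± 0.25, and Stard4, a sterol carrier, fell by 1.07 ± 0.27. With scaling by total counts Srebf2 (0.99), Srebf1 (0.96) and Npc1 (0.82) were under the fold threshold, as were Npc1 without WT replicate 2 (0.89) and Stard4 without KO replicate 2 (-0.87).

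The other genes of the lists called in 1 direction in all 3 fractions were Ebp, a sterol isomerase, which rose by 2.31 in monosomes, by 2.51 in low polysomes and by 2.07 in high polysomes; Mvd, mevalonate diphosphate decarboxylase, which fell by 1.64, 1.12 and 1.07; Rnf145, a ubiquitin ligase, which rose by 1.21, 1.35 and 1.63; and Vldlr, a lipoprotein receptor. Vldlr held 1 to 2 reads in each KO monosome library against 8 to 12 in WT, and fell by 1.96 in low and by 1.96 in high polysomes. Mvd in high polysomes was at -0.97 without WT replicate 3 and at -0.96 without KO replicate 2. Over the 33 genes, 3 were called higher and 4 lower in monosomes, against 8.43% and 9.63% of all genes. In low polysomes these were 2 and 5, against 11.4% and 13.6%, and in high polysomes 4 and 6, against 15.1% and 17.9%. With the fold threshold the counts thus lay near the shares of all genes. At adjusted p alone, 10 of the 33 were higher and 12 lower in monosomes, against 17.5% and 19.9%. In low polysomes these were 11 and 13, against 26.1% and 26.2%. In high polysomes they were 18 and 10, against 29.1% and 31.6%. The medians were -0.21, 0.16 and 0.42, beside -0.05, 0.00 and -0.08 over all genes.

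Neighbouring branches were counted first in translation level, where 6.29% of all genes were called higher and 8.81% lower. Of 5 tested genes of efflux and esterification 1 was called higher in translation level, Abca1, the cholesterol exporter (1.502 ± 0.584, limma adjusted p = 0.0494), which was not called with edgeR, DESeq2 or the gradient as a replicate block (1.38, adjusted p = 0.0649) or without WT replicate 1, 2 or 3 or KO replicate 1 or 3 (adjusted p 0.0798 to 0.204). All 12 genes of fatty acid synthesis had a positive change in translation level, though 9 of 12 with scaling by total counts, with a median of 0.77 (0.44) beside 0.01 (-0.32) over all genes. At adjusted p alone 7 were higher, against 13% of all genes, and 0 lower, against 15.2%; with total counts 2 were higher. With the fold threshold 1 was called higher, against 6.29%, and this was Fads2, a desaturase (1.05 ± 0.40, adjusted p = 0.0473), which was lost without WT replicate 1 or 3 or any 1 KO replicate (adjusted p 0.0585 to 0.26). In that list Scd1, the stearoyl-CoA desaturase, fell in all 3 fractions by 2.07, 1.77 and 1.12, and Elovl1, a fatty acid elongase, rose by 1.21, 1.56 and 1.40. Of 8 tested genes of the other mevalonate branches 0 were called in translation level by limma, edgeR or DESeq2, with 0 higher and 2 lower at an unadjusted p under 0.05. For KO against WT, 8.43%, 11.4% and 15.1% of all genes were called higher in monosomes, low and high polysomes. In the same order, 9.63%, 13.6% and 17.9% were called lower. Of the 5 efflux and esterification genes 0, 2 and 4 were called higher, and 0 were called lower. Of the fatty acid genes 1, 1 and 3 were called higher, and 1 was lower in each fraction. Of the 8 genes of the other mevalonate branches 1, 1 and 0 were called higher, and 0 were lower.

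Coding sequence (CDS) length moved with the change in translation level over all protein-coding genes. The median change climbed from -0.94 in the shortest decile of coding sequences to 0.62 in the longest. Insig1, with 780 nt, fell in the third decile, whose median was -0.34 and of whose genes 10.5% were called lower. Subtracting the median of the same decile left Insig1 at -1.05, Hmgcs1 at 0.51, Fdft1 at 0.59, Fdps at 0.45, Lss at 0.43, Dhcr7 at 0.23 and Sqle at -0.14. Of the 6 other pathway genes called in translation level, Srebf2 was left at 0.82, Srebf1 at 0.80, Npc1 at 0.53, Stard4 at -0.43, Pmvk at -0.41 and Erg28 at -0.27, so that none of the 6 kept a difference beyond the fold threshold. Among the pathway genes not called, Npc2 of the uptake and release list was left at 1.04 (0.10 before). Mvk of the sterol synthesis list was left at -0.94 (-0.98 before, limma adjusted p = 0.00108), near Insig1. The part of length in these results was not tested beyond this subtraction.

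**Figure D4:**
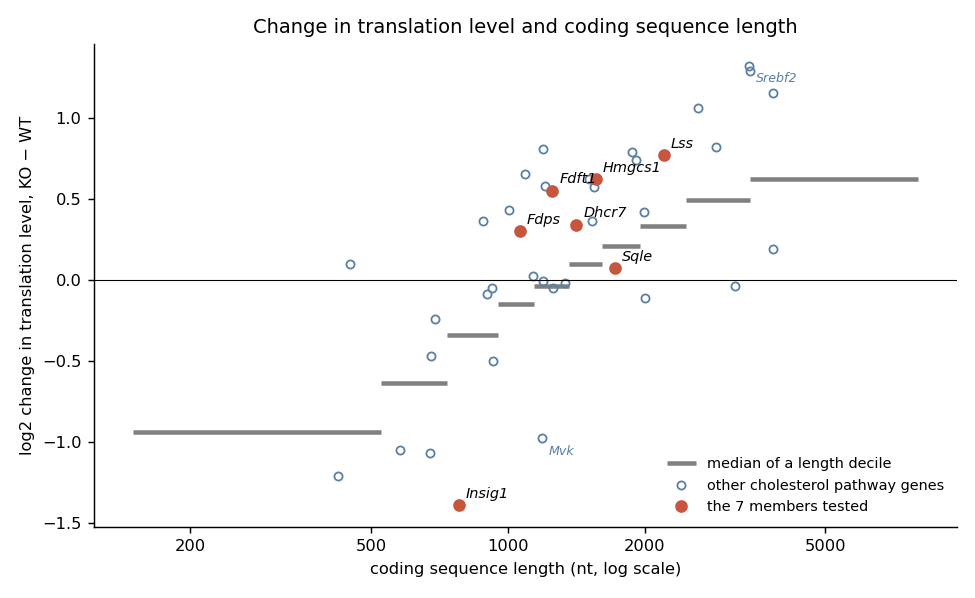
Change in translation level, KO minus WT, on the log2 scale (y axis) against CDS length in nt (x axis, log scale). Filled points are the 7 tested members, open points the other cholesterol pathway genes, and grey lines the median of each decile of protein-coding genes by length, with the lines of the shortest and the longest decile shortened. Insig1, at 780 nt and -1.39, lay below the median of its decile, -0.34.

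Dgcr8 kept 38 to 183 reads in each KO library, and its monosome level was 74.8 ± 5.75 CPM with WT and 50.2 ± 2.58 CPM with KO cells. Low polysomes held 62.8 ± 9.65 CPM (WT) and 46.6 ± 10.6 CPM (KO), and high polysomes 27.7 ± 1.76 CPM (WT) and 15.4 ± 7.17 CPM (KO). It was called lower in KO high polysomes (log2 -1.01 ± 0.23, limma adjusted p = 0.000276) and in no other fraction. Reads at the 3′ end do not check a deletion elsewhere in a gene, so the genotypes rest on the labels. All 9 ESC markers of a fixed list were tested, and their summed level was 2900 to 5210 CPM in WT and 2920 to 3790 CPM in KO libraries. In high polysomes it was 4730 to 5210 CPM in WT and 3270 to 3790 CPM in KO. The 5 fibroblast feeder markers summed to 4.27 to 26.7 CPM, the 5 primitive endoderm markers to 1.55 to 7.93 CPM, the 5 germ layer markers to 25.1 to 50.2 CPM in WT and 8.96 to 19 CPM in KO, and the 3 formative epiblast markers to 32.4 to 84.4 CPM, with no marker at 0 in every library. The formative epiblast sum was 58.0 to 84.4 CPM in WT and 33.1 to 38.5 CPM in KO high polysomes, and the genotypes overlapped in the other fractions. Of its 2 tested markers, 1 was called lower in KO in each fraction. The part of these differences in the results was not tested.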

How the data were processed

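Raw counts of 3′ end reads per gene (QuantSeq 3′ FWD, single-end) were deposited by the authors for 18 libraries in 1 table, every count column of which matched 1 library. Per the labels and the study's methods, reads were trimmed with cutadapt 1.14, aligned to mm10 with STAR 2.5.3a, kept if they mapped to 1 place, and counted by strand with featureCounts 1.5.3 on GENCODE M14 without rRNA genes. No step on molecular identifiers is given in the sources used here, so PCR copies count as reads. Reads that map to several places, or overlap 2 genes on the same strand, are not counted, which can lower genes with near-identical copies such as Fdps. The loss of reads was not measured. The deposited table also holds an exonic length per gene, unused here. 92 spike-in entries, at most 0.00215% of the reads, were left out.

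Symbols and coordinates (1-based, GRCm38) came from GENCODE M21, which matched 51274 of the 51467 genes. A gene needed 3 CPM in at least 3 libraries. TMM-scaled counts were fitted with limma-voom (limma 3.58.1, edgeR 4.0.16, R 4.3.3), each of the 6 groups having its own mean and no block, with Benjamini-Hochberg adjustment over all 12851 genes and two-sided tests. Interaction terms gave the changes in fraction ratios. All p-values called adjusted are from limma unless another tool is named. The CPM filter and the interaction follow the study. The fold threshold is the one it used for another comparison, and voom and TMM were chosen here. Ratios per gradient and correlations used log2 CPM with a prior count of 2. Code was tested on simulated data.

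The 3 fractions of 1 number in a genotype came from 1 gradient, so the gradient block is a pairing by design. Deviations of these fractions from group means correlated weakly, at 0.032 to 0.135 in all 18 pairs. The main fit, which gave the SE and adjusted p-values above, did not use this pairing. Whether the same number in the other genotype marks a shared origin was not tested.

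Members and gene lists were chosen with earlier results of these data known. Named besides the members were Srebf2 and Srebf1, and, per list, up to 3 genes called with the largest absolute log2 value in translation level change or in all 3 fractions in 1 direction. Npc2 and Mvk were named only for the subtraction of CDS length. Some genes of the pathway lists are not reported here and stay out of the counts. The 5 genes most like the members were ranked by Pearson r over 18 libraries.

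Alternatives were total counts or DESeq2 size factors as scaling, limma-trend, edgeR, DESeq2 1.42.0, other filters (none, 10 CPM), only the libraries compared, a replicate block, no fold threshold, removal of the CDS length trend, and each gradient left out in turn.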

Additional observations from a re-analysis of the deposited data

Results flagged for a closer look

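Insig1 stood out because its change between fractions differed between the genotypes: the interaction of genotype and fraction was -1.39 on the log2 scale (limma adjusted p = 0.00013), with a high polysome to monosome ratio of 0.39 ± 0.36 in WT and -0.98 ± 0.29 in KO cells (log2, SD, n = 3 gradients). All 3 KO gradients lay under all 3 WT gradients. Groups of 3 libraries are too small for the test of single outlying samples, which was not run.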

How the results depend on the processing

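Of the members' values under the alternatives, 796 kept their direction and their side of the threshold, 13 came to pass it, 23 ceased to pass it and 15 turned in direction. The change of Insig1 in translation level was called in all of the settings run that give a test, from -1.20 to -1.72. Subtracting the median of the CDS length decile, which gives no test, left Insig1 at -1.05 and turned Sqle to -0.14. Of the counts, 168 stayed within 1.5 times and 24 did not.

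Scaling by total counts moved the median of all genes to -0.32 in translation level change, -0.31 in KO against WT in high polysomes and -0.32 in KO translation level. Higher and lower calls then were 282 and 2070 in translation level change (808 and 1132 with TMM), 81 and 697 in the low polysome to monosome change (158 and 489), 122 and 844 in the high to low polysome change (294 and 372), 1426 and 3114 in high polysomes (1946 and 2303) and 1551 and 3932 in KO translation level (2243 and 3277). It turned the small differences of Fdps (-0.031) and Sqle (-0.26) in translation level, Hmgcs1 (-0.15) from low to high polysomes, Fdft1 (-0.14) in high polysomes, Lss (-0.20) in KO translation level and, outside the members, Elovl1 (-0.15) in translation level. Members called became 1 in the low polysome to monosome change and 1 in monosomes.

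The members called in monosomes were also 1 with limma-trend, with no filter on low counts and with only the libraries compared, and those in low polysomes 1 with limma-trend. With no fold threshold, 2 of the 7 members were called in translation level change, 2 in low polysome to monosome change and 6 in WT translation level. Of all 12851 genes, 3621, 1464 and 6944 were called there, in that order. For KO against WT, 5 of the 7 members were called per fraction. Of the 33 other pathway genes, 12 were called in translation level change. For KO against WT they numbered 22 (monosomes), 24 (low polysomes) and 28 (high polysomes). All genes called in those fractions numbered 4797, 6716 and 7802 of the 12851. Lss in KO translation level turned to -0.062 with the 10 CPM filter.

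With 1 gradient left out, members called ranged from 0 to 1 in the low polysome to monosome change, 1 to 2 in monosomes, 1 to 3 in low polysomes, 2 to 4 in WT translation level and 3 to 6 in KO translation level. Values that turned lay close to 0: Sqle -0.06 to 0.19 in translation level, Hmgcs1 -0.053 to 0.19 from low to high polysomes and -0.36 to 0.039 in low polysomes, Fdft1 -0.033 to 0.22 in high polysomes, and Lss -0.13 to 0.20 in KO translation level. Outside the members these were Abca1 in monosomes (-0.63 to 0.12) and, in low polysomes, Erg28 (-0.13 to 0.047).

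With the gradient as a replicate block for fractions, and the replicate number for KO against WT, members called were 1, 0, 0, 2, 2, 1, 2 and 6 in the 8 comparisons, as without it. Across genotypes libraries of the same number correlated at 0 to 0.10 (median 0.055) and those of different numbers at -0.099 to 0.055 (median -0.014). Whether the numbers also mark a shared origin was not tested. The cause of these movements was not tested. Low counts limit what can be read from Idi1 and, at 19 to 53 reads per library, from Lss.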
